A study of Mus musculus with 18 samples.

Results

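BMAL1 peaks were examined at 8 mouse genes of NAD salvage and NAD use: Nampt, Nmnat1, Nmnat3, Nnmt, Parp1, Sirt1, Sirt3 and Sirt6. A site belonged to a gene when the centre of its peak lay inside the gene or within 10 kb of either end in GRCm38. By this rule 5 of the 8 genes had a site, and the sites formed 5 of the 9005 regions left when overlapping peaks of the 3 lists were merged. They comprised 4 of 4813 liver peaks, 3 of 4034 kidney peaks and 4 of 2519 heart peaks. All 8 genes were found by symbol in RefSeq.

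The peaks came from chromatin immunoprecipitation and sequencing (ChIP-seq) of BMAL1 in wild-type C57BL/6 mice aged 3 to 6 months. The animals lived in 12 h light and 12 h darkness with free access to food, and liver, kidneys and heart were taken at ZT06, the middle of the light phase, from 3 mice. Each tissue gave 3 ChIP and 3 input libraries, 18 in all. The tissues were whole organs, so a peak is not assigned to a cell type, and no sample lacking BMAL1 is among the groups. Immunoprecipitation used a purified chicken antibody against the N-terminal domain of mouse BMAL1. The authors pooled all libraries of a tissue before they called peaks. No value here therefore has a spread between animals, no difference between tissues could be tested, and read depth is unknown. For the 3 input libraries titled heart the source label says kidney. Which input entered the heart list cannot be told from the files, so counts are also given without that list. Of 8 genes typical of liver, 2 had a liver peak and none had a kidney or heart peak. Of 8 kidney genes, 3, 3 and 1 had a liver, kidney and heart peak. For 8 heart genes these numbers were 1, 2 and 2. Over all protein-coding genes 18.1, 18.0 and 11.5% had a liver, kidney and heart peak, so counts this small do not check the tissue labels.

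NAD is the coenzyme that sirtuins and poly(ADP-ribose) polymerases split, releasing nicotinamide. Nicotinamide is returned to NAD by NAMPT, the rate-limiting enzyme of salvage, followed by an NMNAT adenylyltransferase, while NNMT removes nicotinamide by methylation. The pathway is a textbook link between the clock and metabolism: Nampt is a known target of CLOCK and BMAL1, and the deacetylase SIRT1 and the polymerase PARP1 act on clock proteins. CLOCK and BMAL1 bind as a pair to the E-box CACGTG.

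The sequences of 4 start sites are shown because 3 of them hold the only sites found in every tissue, and the fourth, Nmnat1, encodes the enzyme of the next salvage step and had no site. Each is the 250 bases before the start site, 5′ to 3′ on the strand of the gene, from RefSeq in GRCm38.p6. Capitals mark E-boxes, both CACGTG and the looser pattern CANNTG, which includes it. Nampt is from chr12:32820085-32820334 on the plus strand, Parp1 from chr1:180568641-180568890 on the plus strand, Sirt1 from chr10:63339036-63339285 on the minus strand and Nmnat1 from chr4:149485211-149485460 on the minus strand.
Nampt: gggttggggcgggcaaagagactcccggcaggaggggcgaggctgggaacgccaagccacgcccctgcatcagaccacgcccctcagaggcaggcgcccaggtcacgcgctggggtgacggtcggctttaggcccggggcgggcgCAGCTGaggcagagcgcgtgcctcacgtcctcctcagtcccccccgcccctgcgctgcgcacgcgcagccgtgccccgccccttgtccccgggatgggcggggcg
Parp1: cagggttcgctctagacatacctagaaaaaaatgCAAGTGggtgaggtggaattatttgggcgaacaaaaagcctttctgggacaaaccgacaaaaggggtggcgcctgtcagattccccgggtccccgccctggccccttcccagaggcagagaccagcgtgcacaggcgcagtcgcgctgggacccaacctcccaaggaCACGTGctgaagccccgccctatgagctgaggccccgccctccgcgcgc
Sirt1: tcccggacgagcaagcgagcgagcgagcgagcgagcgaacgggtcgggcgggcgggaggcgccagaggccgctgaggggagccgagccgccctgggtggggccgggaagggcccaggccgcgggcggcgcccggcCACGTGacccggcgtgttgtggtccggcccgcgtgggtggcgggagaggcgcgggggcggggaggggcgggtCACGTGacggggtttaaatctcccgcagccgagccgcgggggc
Nmnat1: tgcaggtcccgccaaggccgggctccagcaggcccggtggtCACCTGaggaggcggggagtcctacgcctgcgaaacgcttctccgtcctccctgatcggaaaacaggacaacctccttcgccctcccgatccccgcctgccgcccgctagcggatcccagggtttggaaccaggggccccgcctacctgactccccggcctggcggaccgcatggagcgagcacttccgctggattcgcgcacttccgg

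The 3 genes with a site in every list were Nampt, Parp1 and Sirt1, and each site lay at the start of the gene. Nmnat3 had a site in liver only and Sirt3 a site in heart only, both with low scores. Nmnat1, Nnmt and Sirt6 had no site within 10 kb. A liver peak thus lay at 4 of the 8 genes, against 18.1% of 21887 protein-coding genes. A kidney peak lay at 3 of 8, against 18.0%, and a heart peak at 4 of 8, against 11.5%. Peaks of all 3 lists lay at 3 of 8 genes, against 4.35% of protein-coding genes. A peak of any list lay at 5 of 8, against 30.7%. The members were chosen with results of these data known, so these counts are a description and carry no test.

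Peak position was also read against start sites. Both strand and start are known for 17492 protein-coding genes, in promoter windows of 300 bases that run from 250 before the start to 50 from it. Of the 8 members 7 had such a window, and Nnmt had none. A peak centre of every list fell in a window of Nampt, Parp1 and Sirt1, which was so for 0.955% of these genes. Taken list by list, 3.68% of these genes had a liver peak centred there, 5.13% a kidney peak and 2.41% a heart peak, and the members with such a peak were the same 3 in each list. The median distance from the 8 genes to the nearest peak, counted as 0 inside the gene, was 11.5, 24.0 and 10.4 kb for liver, kidney and heart peaks. Over all protein-coding genes it was 121 kb, 130 kb and 223 kb. The 8 members were not alike, with distances from 0.0335 to 185 kb in liver, 0.0385 to 720 kb in kidney and 0 to 186 kb in heart. The medians thus do not place every member near a peak.

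Nampt, the gene of the rate-limiting salvage enzyme, had the highest score of the members in every list. Its peak covered chr12:32820091-32820332 in liver, with a score of 158 at rank 117 of 4813. In kidney the peak at chr12:32820117-32820304 scored 122, also at rank 117, of 4034. In heart the peak at chr12:32820142-32820339 scored 112 at rank 104 of 2519. These ranks fall 2.43, 2.90 and 4.13% of the way down the liver, kidney and heart lists. The score is a whole number given by the authors, on an unstated scale, so it orders peaks within a list and is not compared between lists. Tied peaks share the best rank, and 6, 2 and 5 peaks held the Nampt scores. The peak centres lay 123.5, 124.5 and 94.5 bp before the start site in liver, kidney and heart, outside the gene. The 3 peaks had 163 bp in common. No other protein-coding gene lay within 10 kb, and the long noncoding RNA gene Gdap10 lay 3901 bp from the centre of the region.

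Parp1 encodes the main DNA-damage-activated poly(ADP-ribose) polymerase. Its liver peak at chr1:180568737-180568978 scored 108 and ranked 381. The kidney peak at chr1:180568759-180568946 scored 87 and ranked 278. The heart peak at chr1:180568768-180568965 scored 72 and ranked 268, a rank shared with 14 peaks of that score in all. These ranks lie in the top 7.92, 6.89 and 10.6% of the lists. The centres were 33.5, 38.5 and 24.5 bp before the start site, so the peaks spanned the start in all 3 tissues. They had 179 bp in common, the largest overlap of the 3 members. The long noncoding RNA gene Gm31986 also covers this region, and binding cannot be assigned to either gene from position alone.

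Sirt1 encodes the NAD-dependent deacetylase of the nucleus that acts on histones and on transcription factors. Its liver peak at chr10:63339014-63339255 scored 76 and ranked 848. The kidney peak at chr10:63339047-63339234 scored 77 and ranked 365, and the heart peak at chr10:63339014-63339211 scored 82 and ranked 210. These ranks are 17.6, 9.05 and 8.34% of the way down the lists. Sirt1 was thus lower in the order than Parp1 in liver and kidney and above it in heart. The centres lay 99.5, 105.5 and 77.5 bp before the start site, with 165 bp in common. No other annotated gene lay within 10 kb. A further liver peak, with a score of 41 at rank 2268, lay 29.1 kb outside Sirt1 and nearest to Dnajc12.

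**Figure D1:**
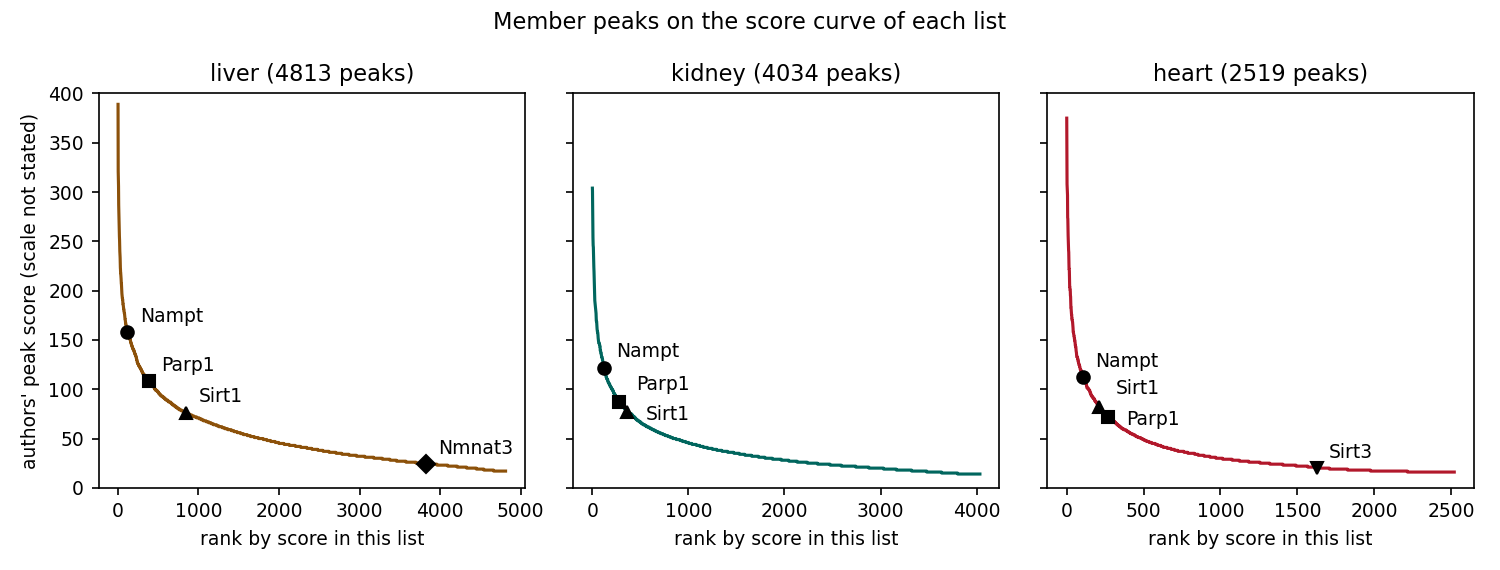
Score of every peak (vertical axis, the authors' score, scale not stated) against its rank (horizontal axis) in the liver, kidney and heart lists, with member peaks as black symbols. Nampt sits highest in each list at scores of 158, 122 and 112, while Nmnat3 in liver (24) and Sirt3 in heart (20) lie on the flat part of the curve.

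Among peaks centred in promoter windows, Nampt ranked 37 of 644 genes in liver, 38 of 897 in kidney and 39 of 421 in heart. Parp1 ranked 121, 102 and 96, and Sirt1 ranked 222, 141 and 72. Such genes had median scores of 60, 38 and 43 in the 3 lists, and all 9 peaks of these members exceeded the median of their list. Only 167 genes had such a peak in every list, as these 3 members do, so the medians come from unlike genes. Among the 519 regions found in all 3 tissues, Sirt1 in liver was at place 341, in the lower part.

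Lists of different lengths give ranks that cannot be set against each other, so the 3 regions were also placed among the 519 regions found in all 3 tissues, which are the same regions in every list. Nampt was at place 94 in liver, 111 in kidney and 99 in heart, or 18.1, 21.4 and 19.1% of the way down. Parp1 was at place 223, 211 and 238, or 43.0, 40.7 and 45.9%. Both held a narrow range, of 3.28 percentage points for Nampt and 5.20 for Parp1, where the median range over the 519 regions was 17.5. A range at least as wide as theirs was seen at 92.9% and 87.9% of the common regions. Sirt1 was at place 341 in liver, 252 in kidney and 193 in heart, or 65.7, 48.6 and 37.2%. Its range of 28.5 points was wider than the median of 17.5, and was reached by 24.3% of the common regions. This shift between lists was not tested. The mean of the ranks in the 3 full lists put Nampt at place 87, Parp1 at 205 and Sirt1 at 277 of the 519. This mean was not corrected for list length, so the longer lists can weigh more in it.

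**Figure D2:**
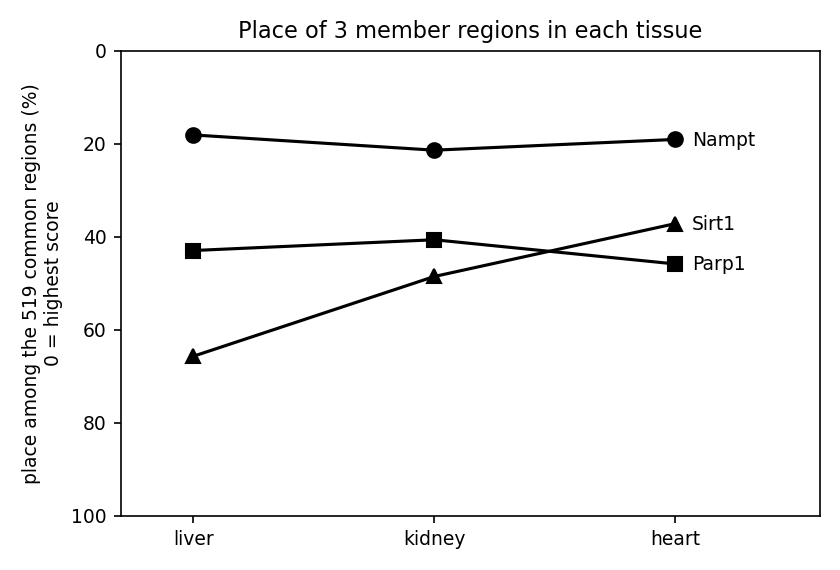
Place of the Nampt, Parp1 and Sirt1 regions among the 519 regions common to the 3 tissues (vertical axis, percent of the way down by score, 0 highest) in liver, kidney and heart (horizontal axis). Lines only join the values of a gene. Nampt stays between 18.1 and 21.4%, Parp1 between 40.7 and 45.9%, and Sirt1 lies at 65.7% in liver and 37.2% in heart.

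Peaks were merged only where they overlapped, so centres close together follow from the rule. The centres of the 3 peaks of a gene lay within 30 bp of each other at Nampt, 28 bp at Sirt1 and 14 bp at Parp1. The median over the common regions was 27 bp. Centres at least as close as at Nampt, Sirt1 and Parp1 were found at 56.6, 52.8 and 18.1% of the common regions. In all 3 genes the heart centre was the one nearest to the start.

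The letters under the peaks differed among the 3 genes. CACGTG was searched in the promoter windows on both strands, which for this palindrome are the same. It occurred in 7.15% of all 32851 windows and in 60.4% of the 202 windows with a peak centre of every list. In windows with a peak centre of a given list it occurred in 45.4% for liver, 41.4% for kidney and 40.7% for heart, and in windows with none in 5.62%. These shares describe the lists, and a match is neither a binding site shown by these data nor a cause.

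Sirt1 had 2 copies of CACGTG, at positions -115 to -110 and -43 to -38 counted from the first transcribed base as 0, with 72 bp between their first bases. At least 2 copies were found in 0.594% of all windows and in 16.8% of the windows with a peak centre of every list. The centre of the copy farther from the start was 13, 7 and 35 bp from the liver, kidney and heart peak centres. The centre of the copy nearer to the start was 59, 65 and 37 bp away. In liver and kidney the peak centre was thus much closer to the far copy, and in heart it lay about midway. Both copies were inside the peak in all 3 tissues.

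Parp1 had 1 copy of CACGTG, at -49 to -44, whose centre was 13, 8 and 22 bp from the peak centre in liver, kidney and heart. Over all windows with CACGTG and a peak centre, the median distance from the peak centre to the nearest copy was 16, 20.5 and 19 bp for liver, kidney and heart. Another CANNTG, with the letters CAAGTG, lay at -216 to -211, outside all 3 peaks.

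Nampt, the member with the highest-scoring peaks, had no CACGTG in its window, which covers all 3 of its peaks in full. It shares this with 80 of the 202 windows bound in every list (39.6%, Nampt included). Its only CANNTG was CAGCTG at -105 to -100, with its centre 21, 22 and 8 bp from the liver, kidney and heart peak centres. CANNTG occurred in 72.3% of all windows and in 84.2% of the windows bound in every list. The variant CACGTT, or AACGTG on the other strand, was in none of the 3 windows and in 4.68% of all windows. A pair of words that differ from CACGTG at a single base was picked after the Nampt sequence had been read, because they occur there. Besides these, CACGTT and the words covered by CANNTG, no other such words were searched. CACGTC, sought as GACGTG on the other strand, was found at -82 to -77 and was in 6.38% of all windows and 15.3% of those bound in every list. CACGCG, sought as CGCGTG on the other strand, was found 3 times at Nampt and 1 time at Sirt1, and was in 9.27% of all windows and 47.5% of those bound in every list. The Nampt copy at -147 to -142 was 21, 20 and 50 bp from the liver, kidney and heart peak centres. The copy at -91 to -86 was 35, 36 and 6 bp from them, and the copy at -46 to -41 was 80, 81 and 51 bp from them. All 3 bound windows were rich in G and C, at 76.3% in Nampt, 62% in Parp1 and 79% in Sirt1. The median was 52.7% over all windows and 66.7% over those bound in every list, and the part of base composition in the counts of letters such as CACGCG was not tested.

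**Figure D3:**
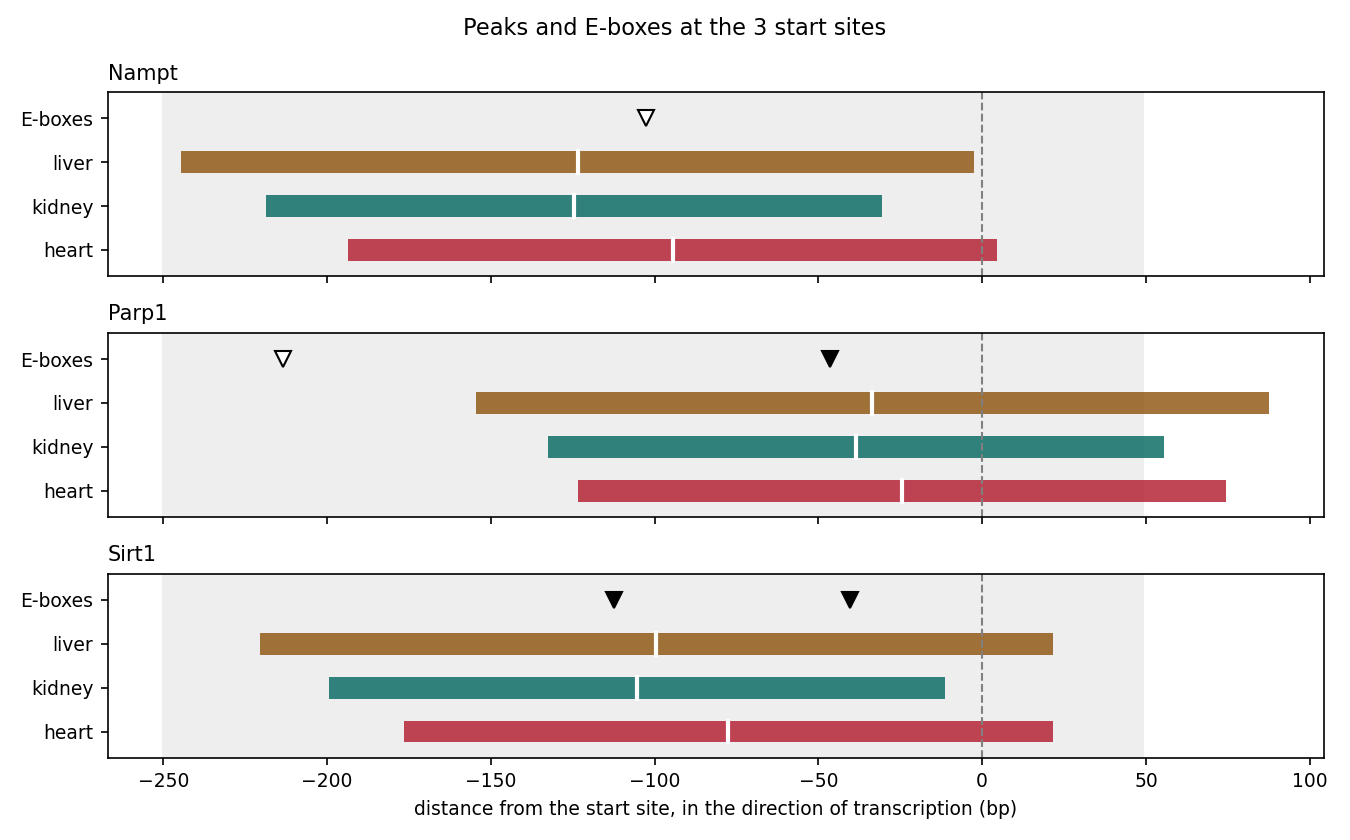
Peaks of liver, kidney and heart (bars, with the centre as a white line) and E-boxes (triangles, filled for CACGTG and open for other CANNTG) against distance from the start site in bp, at Nampt, Parp1 and Sirt1. Grey shading marks the searched window. Filled triangles lie under the peaks of Parp1 (1) and Sirt1 (2), and Nampt has only an open one.

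Nmnat1, Nmnat3, Sirt3 and Sirt6 had 7 promoter windows, none with a peak centre in any list and none with CACGTG. This is the common state, since 31234 of all 32851 windows had no peak centre, and only 5.62% of those had CACGTG. The 2 windows of Nmnat1 overlap and hold the same CANNTG. The G and C content of the 7 windows ran from 49 to 69%. Nnmt had no promoter window, so its start was not searched. Nmnat1 encodes the nuclear NMN adenylyltransferase, and its printed start has 1 CANNTG with the letters CACCTG. The nearest peaks to Nmnat1 were far from it, at 185 kb in liver, 211 kb in kidney and 99.2 kb in heart, and lay nearest to Kif1b, Pik3cd and Ube4b. Of all protein-coding genes, 58.7% had a liver peak at least as near, 59.3% a kidney peak and 33.2% a heart peak.

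Nmnat3 encodes a mitochondrial form of the same enzyme. Its only site was a liver peak at chr9:98280291-98280532 with a score of 24 at rank 3823 of 4813, which it shared with 138 peaks of that score in all. The list's median score was 40. The centre lay 7021.5 bp outside the annotated gene, whose outermost end is upstream of the start site used here, and no protein-coding gene was nearer. Of the sites counted, this was the one farthest from its gene. The nearest kidney and heart peaks were 720 kb and 118 kb away.

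Sirt3 encodes the main mitochondrial deacetylase of the family. Its only site was a heart peak inside the gene at chr7:140874719-140874916, with a score of 20 at rank 1624 of 2519, below the list's median of 25. Exons and introns were not used here. The centre lay 7491.5 and 7051.5 bp past its 2 annotated starts, and the next gene, Psmd13, was 7576.5 bp away. Liver had no Sirt3 site within 10 kb. A liver peak with a score of 62 at rank 1251 lay 21.2 kb from Sirt3 and nearest to Cox8b. A site of liver and kidney lay 31.9 kb away, nearest to Nlrp6. A further heart peak, with a score of 16 at rank 2215, lay 48.6 kb from Sirt3 inside Zfp941. The Sirt3 site is the only member site that rests on the heart list alone. Without the heart list, 4 regions were left, 3 of them in both liver and kidney and 1 in liver only.

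Sirt6, a chromatin-bound deacetylase with roles in DNA repair and glucose metabolism, had no site within 10 kb, but had peaks 16.0 to 20.8 kb away. Sirt3 had a liver peak at a like distance, 21.2 kb. A liver peak with a score of 103 at rank 433 lay 16.0 kb from the gene and overlapped a kidney peak with a score of 57 at rank 663, both inside Ankrd24. On the other side, 20.8 kb away and inside Tle6, lay a heart peak with a score of 72 at rank 268 and an overlapping kidney peak with a score of 40 at rank 1198. The liver and heart peaks next to Sirt6 were therefore different sites, each shared with kidney. Neither is counted for Sirt6 by the rule.

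Nnmt encodes the methyltransferase that clears nicotinamide, and is known for its high level in liver. It had no site within 10 kb in any list. The nearest liver peak, with a score of 39 at rank 2408, lay 41.6 kb away and 2.51 kb from Zbtb16, which was nearer to it. The nearest kidney and heart peaks were 377 kb and 186 kb from the gene.

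Of the 5 regions at members, 3 were found in all 3 tissues and 2 in 1 tissue. Of the 7409 regions inside or within 10 kb of a protein-coding gene, 6.44% were found in all 3 tissues, 15.6% in 2 and 77.9% in 1. The members had no region shared by exactly 2 tissues. The 3 common sites were also the 3 at start sites, and the 2 others lay kilobases from a start. How often regions lie at a start was not counted over all common or single-tissue regions. For these 5 regions the position is therefore a description only.

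The other genes of NAD metabolism were counted from a list of 39 genes arranged by role. In liver 13 of 39 had a peak, in kidney 10 and in heart 7, or 33.3, 25.6 and 17.9%, beside 18.1, 18.0 and 11.5% of all protein-coding genes. A peak of every list lay at 2 of 39 genes (5.13%), close to the 4.35% over all genes, and a region common to the 3 tissues lay at 1, Parp3. Besides Nampt, Parp1 and Sirt1, Parp3 was thus the only gene of these lists with a region common to the tissues.

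Among salvage enzymes outside the members, 5 of 6 had a peak in at least 1 list and none in every list, beside 30.7% and 4.35% of all protein-coding genes. For these genes the best peak of each list is described, and some had further peaks. The nucleotidase gene Nt5c2 had the best rank of the 39 genes, with a kidney-only peak inside the gene scoring 82 at rank 317, and a separate liver-only peak scoring 52 at rank 1645. Nmnat2, the neuronal NMN adenylyltransferase gene, had a site of liver and heart inside the gene, with scores of 38 at rank 2481 and 64 at rank 328. That site lay 110766 bp from the start of Nmnat2. Nmrk2, which encodes the nicotinamide riboside kinase of muscle, had a site of liver (score 30, rank 3176) and heart (score 47, rank 520) about 5.6 kb away that lies inside Dapk3.

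Of the 9 genes of synthesis from tryptophan, 3 had a liver peak, 2 a kidney peak and 1 a heart peak, or 33.3, 22.2 and 11.1%. The kidney and heart shares are near the 18.0 and 11.5% of all protein-coding genes, and the liver share compares with 18.1%. The formamidase gene Afmid had 2 liver peaks, the better of them liver-only and inside the gene with a score of 78 at rank 788, and its kidney peak (score 18, rank 3164) was nearer to Birc5. Haao, the gene of the dioxygenase that makes the quinolinate precursor, had 2 liver peaks. The better of them was liver-only, scored 62 at rank 1251 and lay 10551.5 bp from the start of Haao. A separate kidney-only peak, scoring 15 at rank 3635, lay 158.5 bp from that start. Both genes of the nicotinic acid branch, Naprt and Nadsyn1, had no peak in any list. A peak of any list lay at only 30.7% of all protein-coding genes.

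Of the 4 other sirtuin genes, only Sirt7 had a peak in any list, beside 30.7% of all protein-coding genes. It had 2 regions, the better of them in liver (score 78, rank 788) and kidney (score 51, rank 813). That region lay past the end of Sirt7, about 7.0 kb from its start, and Pcyt2 was nearer to it or held it. Sirt2, Sirt4 and Sirt5 had no peak in any list. Of the 8 other polymerase and glycohydrolase genes, 4 had a peak of any list, beside the same 30.7%, and that of Parp3 was in all 3 tissues with scores of 75, 52 and 54 at ranks 865, 787 and 428. The Parp3 site was centred within 17.5 bp of the start of Rrp9, against 342.5 bp or more from that of Parp3.

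Of the 10 genes of NADP synthesis, transport and clearance, 4 had a peak of any list, a share near the 30.7% over all protein-coding genes. The NAD kinase gene Nadk had peaks in every list but at 2 different regions. A liver-only peak inside the gene scored 87 at rank 630, and a site of kidney (score 45, rank 1003) and heart (score 44, rank 577) lay 8.5 and 5.5 bp from a start site of Nadk. Nnt, the gene of the mitochondrial transhydrogenase, had a site of kidney and heart inside the gene, with scores of 52 at rank 787 and 51 at rank 464. Slc25a51, which encodes the mitochondrial NAD carrier, had a liver-only peak with a score of 82 at rank 713 inside the gene.

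**Figure D4:**
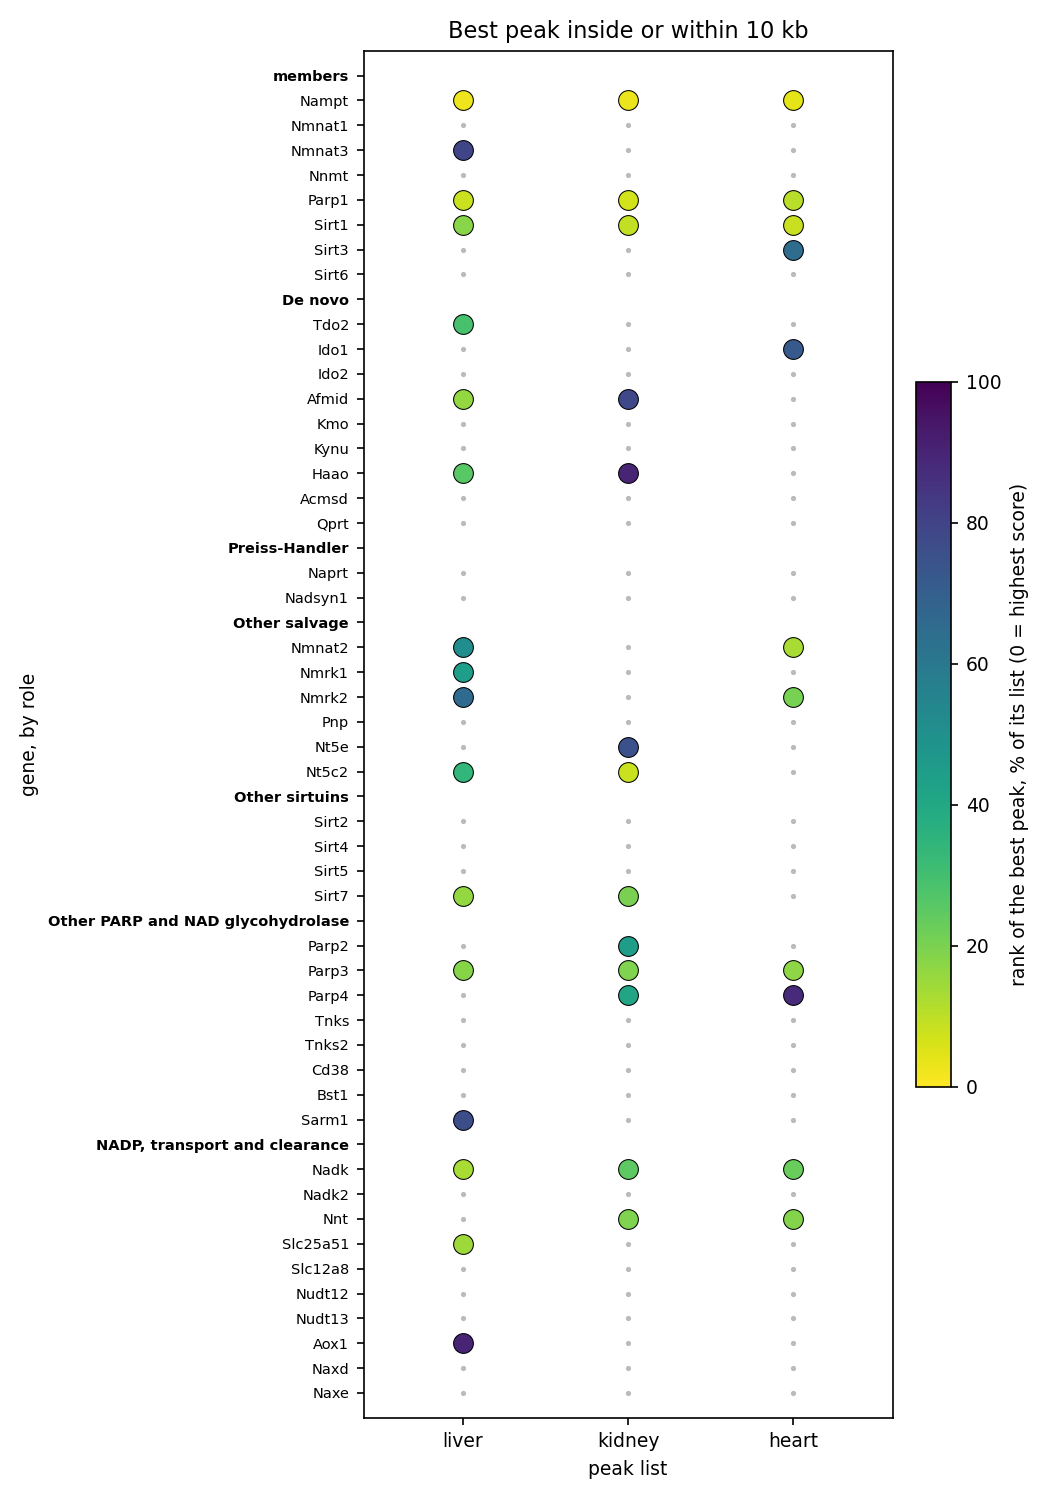
Best peak inside or within 10 kb of each of the 8 members and 39 other NAD genes, by role (vertical axis), in the liver, kidney and heart lists (horizontal axis). Colour gives the rank as a percent of the list (yellow highest score) and grey dots mark genes with no peak. Nampt, Parp1, Sirt1, Parp3 and Nadk have a peak in every list.

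Genes with a similar pattern were sought by the distance between their best ranks, as fractions of each list, over the 3 tissues. Nearest to Nampt were Usp36 (2.76, 3.07 and 4.72% of the liver, kidney and heart list) and the pair Cuta and Kifc5b (2.87, 2.40 and 3.77%), which have the same best ranks. Nearest to Parp1 were Phf20 (8.58, 7.09 and 11.2%) and the pair Eif4a1 and Senp3 (7.52, 6.07 and 10.6%). Nearest to Sirt1 were Ube2g1 (15.9, 9.72 and 8.57%), Mbnl1 (18.5, 10.4 and 5.80%) and Csdc2 (16.4, 12.1 and 8.14%). The likeness is over 3 values per gene and is a description only.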

How the data were processed

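BMAL1 ChIP and input libraries of liver, kidney and heart were grouped by their titles. Per the labels, the authors pooled the replicates of a tissue, input included, into a single deposited peak list, and the submitters' processing notes name Bowtie2, SAMtools, HOMER and mm10, with no roles or settings. The deposited column 5 holds a whole-number score whose scale is not given in the sources used here. Peaks were ranked by it within a list, ties taking the best rank. Files hold no per-animal values or read depth, so no test, error or interval is given.

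Genes, starts, strands and promoter sequences came from RefSeq tables of GRCm38.p6, which is mm10. Peaks overlapping by at least 1 bp were merged. Coordinates count from 1. Scripts (Python 3.11.15, pandas 2.3.3) were tested on simulated lists.

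The members and gene lists were chosen with earlier results of these data known. All members were named, and of the 39 other NAD genes the 10 with the best rank as a fraction of any list; for members with a peak in every list, the 3 genes nearest in these fractions were named. Sites beyond 10 kb are named for members. Alternatives changed the distance, the peaks kept, the overlap rule and the gene assignment, and leaving out heart was added later.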

Additional observations from a re-analysis of the deposited data

How the results depend on the processing

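Of 47 counts under alternatives, 32 stayed within 1.5 times the value reported and 15 did not. Distance moved them most. With peaks inside the gene only, no member had a liver or kidney peak (0 each), 1 had a heart peak, and 1 region was left, in 1 tissue, with 0 in all 3, since the start-site peaks are centred just outside the genes. Within 50 kb, 7 members had a liver peak and 5 a kidney peak, with 12 regions, 6 of them in 1 tissue. Regions in 1 tissue numbered 1 within 5 kb, 1 when each list was shortened to its 2519 best peaks and 1 without the heart list. Keeping the better 50% of every list, 3 regions were left and 0 were in 1 tissue. The number of regions in all 3 tissues was 3 under the other 8 alternatives (without heart, in both remaining lists). No paired analysis was possible because the lists pool all replicates, and no replicate could be left out for the same reason. Read depth is unknown, so a missing peak does not show that binding was absent.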
